A study of Mus musculus with 36 samples.

Results

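A set of 10 genes moved in opposite directions in mouse microglia and astrocytes when the cells were treated with TNF, Smac and zVAD (T/S/Z). Pid1, Gpr85, Serpinb8, Osbpl3 and Myo10 were higher in microglia and lower in astrocytes, and S1pr1, Sik1, Thbs1, Trim47 and Pik3cd were lower in microglia and higher in astrocytes. The 10 genes were picked for this pattern in T/S/Z against DMSO (vehicle), so their values in that contrast are a description with no test. Of 9912 gene symbols tested in both cell types, 75 (0.757%) passed the threshold in opposite directions in that contrast, and the 10 genes are among these 75. By that choice all 10 passed in each cell type, where 29.6% of the genes tested in microglia and 15.4% of those tested in astrocytes passed. The threshold throughout was a fold change over 1.5 in FPKM + 1 with an adjusted p under 0.05 (limma, Benjamini-Hochberg over all genes of a table). FPKM, fragments scaled by exon length and library size, is a level per length, and values are given as log2(FPKM + 1) unless stated otherwise.

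RNA was measured in 24 microglial and 12 astrocyte libraries, 4 and 3 per treatment. Both cell types came from pooled brains of C57BL/6 pups of 2 to 4 days, grown as mixed glia for 12 days. Microglia were then selected by CD11b, and astrocytes by a second positive selection from the CD11b-negative cells. All groups were treated for 4 h. Both cell types received DMSO, the RIPK1 kinase inhibitor Nec-1s, T/S/Z, or a combination of the last pair, written T/S/Z/N. Microglia alone also received TNF and 5z-7, which blocks the kinase TAK1 (T/5z), with or without Nec-1s (T/5z/N). By the study's methods, replicates of cultured cells were biological and came from different litters, though the labels do not tie a library to a litter or say whether libraries with the same number share one.

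TNF signals through a receptor complex in which RIPK1 can either serve as a scaffold for NF-kB and MAP kinase signaling or act as a kinase that leads to cell death and cytokine production. Smac mimetics remove the cIAP ligases, 5z-7 blocks TAK1, and zVAD blocks caspases, and each of these frees the kinase activity that Nec-1s inhibits. Microglia are the resident macrophages of the brain, and astrocytes are its main supporting glia, so a gene shared by both can sit in different programs in each. The 10 genes hold a lipid receptor (S1pr1), an orphan receptor (Gpr85), kinases (Sik1, Pik3cd), a secreted matrix protein (Thbs1), a ubiquitin ligase (Trim47), a protease inhibitor (Serpinb8), a lipid-binding protein (Osbpl3), a motor protein (Myo10) and an adaptor (Pid1).

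The labelled cell types carried their own markers. The 10 microglial markers summed to 6024 to 7300 FPKM over all microglial libraries and to 58.9 to 89.9 FPKM over all astrocyte libraries, and the 9 astrocyte markers to 2924 to 3404 FPKM in astrocytes. Markers of other cells were also detected, and several of their sums differed between treatments. In microglia the 9 astrocyte markers summed to 7.17 to 9.14 FPKM with DMSO, 7.06 to 8.13 with Nec-1s, 13.7 to 19.9 with T/S/Z, 4.88 to 6.03 with T/S/Z/N, 12.1 to 22.2 with T/5z and 8.15 to 8.95 with T/5z/N, at most 0.682% of the DMSO sum in astrocytes, and 7 of 9 were under 1 FPKM with DMSO and 3 of 9 with T/S/Z. The 4 endothelial markers measured in microglia (Cldn5 and Tek were not in that table) had a lower sum in every stimulated group. The sum was 7.64 to 9.47 FPKM with DMSO, 7.57 to 9.78 with Nec-1s and 3.41 to 3.97 with T/S/Z. It was 3.52 to 4.19 with T/S/Z/N, 5.27 to 6.18 with T/5z and 4.24 to 4.67 with T/5z/N. In mean back-transformed level from DMSO to T/S/Z, Pecam1 went from 5.03 to 1.75 FPKM and Kdr from 2.19 to 0.633. Flt1 went from 1.13 to 0.991 FPKM and Cdh5 from 0.243 to 0.266. The 6 fibroblast and mural markers in microglia ranged from 2.74 FPKM (T/S/Z/N) to 16.5 FPKM (T/5z) over all libraries, the 7 measured oligodendrocyte lineage markers from 25.6 to 37.7 FPKM, and the 3 measured neuronal markers stayed at or under 1.95 FPKM. In astrocytes the 10 microglial markers summed to 84.5 to 89.3 FPKM with DMSO, 88.7 to 89.9 with Nec-1s, 58.9 to 61.9 with T/S/Z and 77.0 to 80.6 with T/S/Z/N, at most 1.46% of the DMSO sum in microglia. The 7 measured oligodendrocyte lineage markers in astrocytes summed to 100.2 to 117.4 FPKM with DMSO, 126.9 to 127.5 with Nec-1s, 60.3 to 86.9 with T/S/Z and 67.9 to 71.9 with T/S/Z/N, so the Nec-1s and T/S/Z/N libraries did not overlap. The 6 fibroblast and mural markers in astrocytes were at 516 to 526 FPKM with DMSO, 495 to 534 with Nec-1s, 96.3 to 106 with T/S/Z and 420 to 426 with T/S/Z/N. The 3 endothelial markers measured in astrocytes, where Pecam1 was also not in the table, summed to 17.6 to 19.5 FPKM with DMSO and 15.7 to 18.3 with Nec-1s. The sum was 6.46 to 7.18 with T/S/Z and 12.4 to 15.1 with T/S/Z/N. From DMSO to T/S/Z, Cdh5 went from 12.3 to 2.97 FPKM and Kdr from 4.42 to 0.692, while Flt1 rose from 1.67 to 3.07. Some members of other lists also moved against their sum in astrocytes, such as Cd68 and Cspg4. The 1 measured neuronal marker was at 10.0 to 15.6 FPKM throughout. The part of these cells in the results below was not tested. In bulk RNA, fewer cells of a type and less RNA per cell cannot be told apart.

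**Figure D1:**
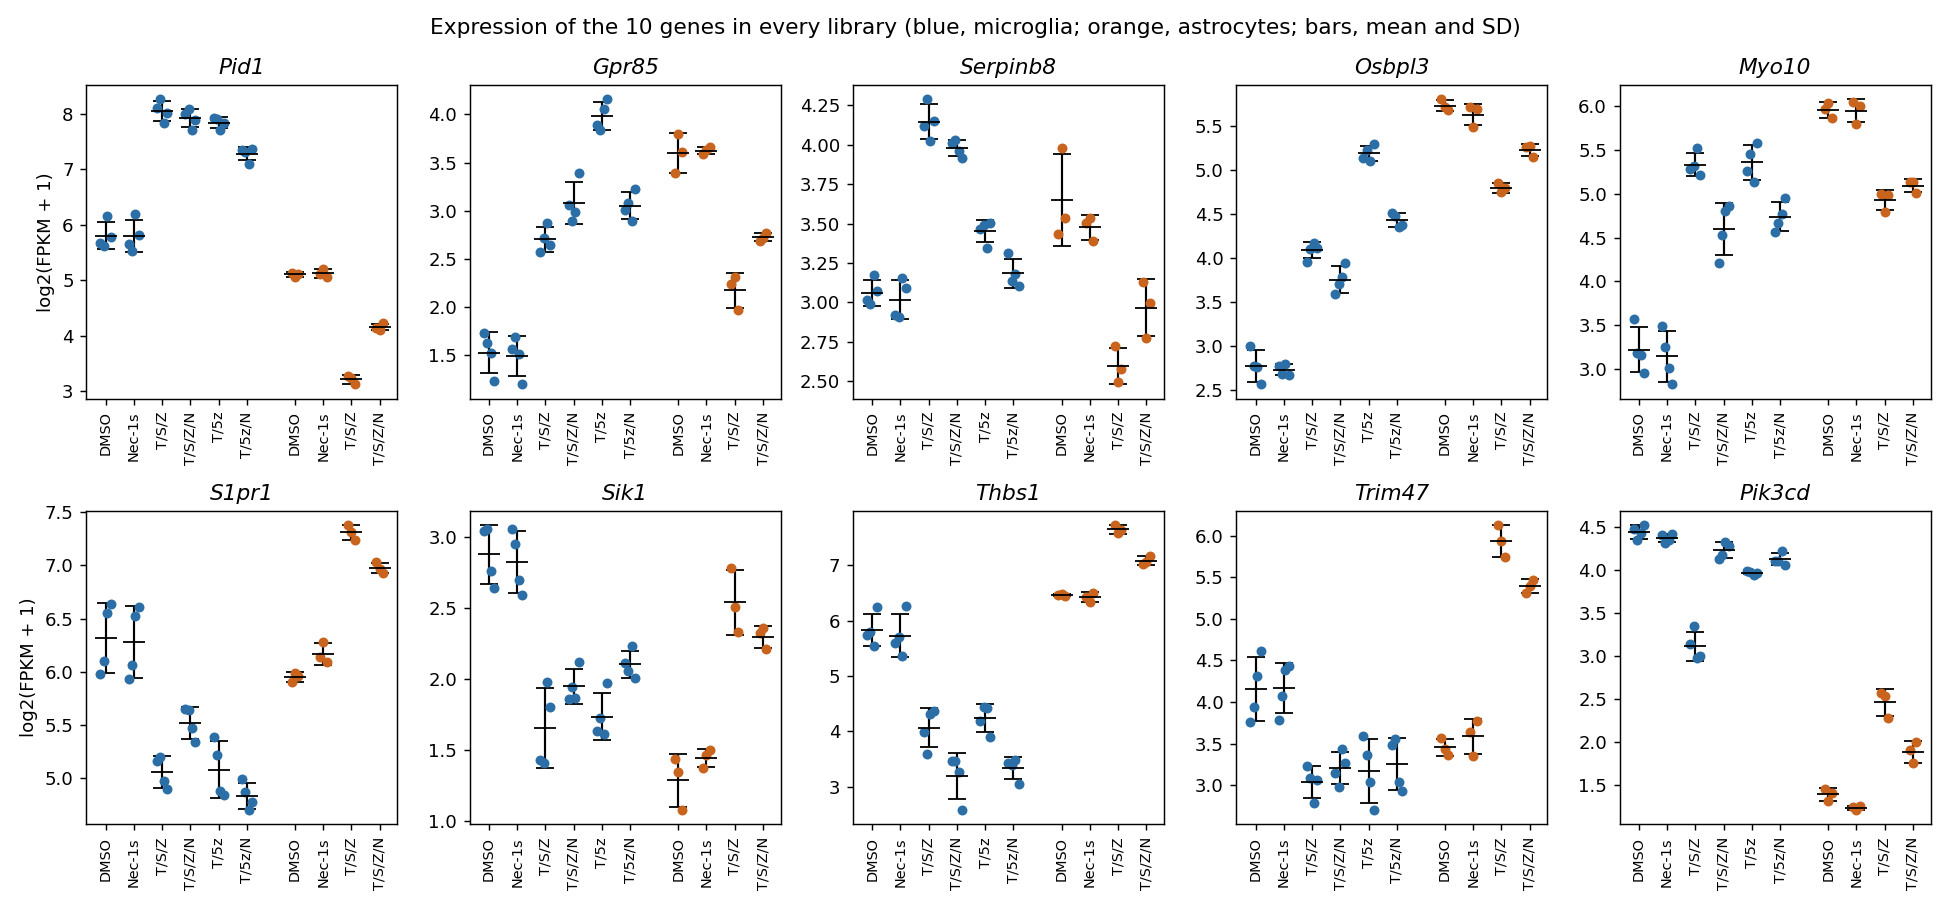
Each panel plots 1 gene, with log2(FPKM + 1) on the y axis and the treatments on the x axis. Points are libraries (blue, microglia, n = 4; orange, astrocytes, n = 3), and bars are the mean and SD. The top row holds the genes higher with T/S/Z in microglia and lower in astrocytes, and the bottom row the reverse. DMSO and Nec-1s overlap in all 10 microglial panels.

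Whether the opposite directions held in libraries that had no part in choosing the genes was examined with T/S/Z/N against Nec-1s, where both arms contain the RIPK1 inhibitor. In the microglial table each gene has the same mean over treatments in all 4 replicates and values below 0 occur in replicates 1 to 3, as after a shift per gene, which would move levels but not the differences within a replicate that the fit uses. Microglial SDs and overlaps of libraries given here are those of the deposited values. They leave out any departure of a replicate that is shared by all treatments. In microglia 9 of the 10 genes passed, 5 higher and 4 lower, where 13.9% of 10524 genes tested passed. In astrocytes 8 passed, 3 lower and 5 higher, where 8.54% of 13842 genes passed. Over all genes tested the median difference was -0.03 in microglia and -0.07 in astrocytes. The 7 genes that passed in both cell types in opposite directions were Pid1, Gpr85, Myo10, S1pr1, Sik1, Thbs1 and Trim47, where 28 of 9912 symbols (0.282%) did so. Of the other 65 genes that were opposite with T/S/Z, 7 passed in opposite directions with T/S/Z/N. The genes that missed the threshold were Pik3cd in microglia, and Serpinb8 and Osbpl3 in astrocytes. With an ordinary per-gene variance in limma, in place of one moderated across genes, Gpr85 alone of the 8 astrocyte genes passed, and the other 7 had adjusted p from 0.0621 (Thbs1) to 0.0933 (Myo10). All 4 microglial pairs and all 3 astrocyte pairs had the sign of T/S/Z against DMSO for every one of the 10 genes. Over all genes tested, the pairs shared one sign for 60.2% in microglia and 64.0% in astrocytes, and for 9.39% of the 9912 symbols they did so in both with opposite signs.

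**Figure D2:**
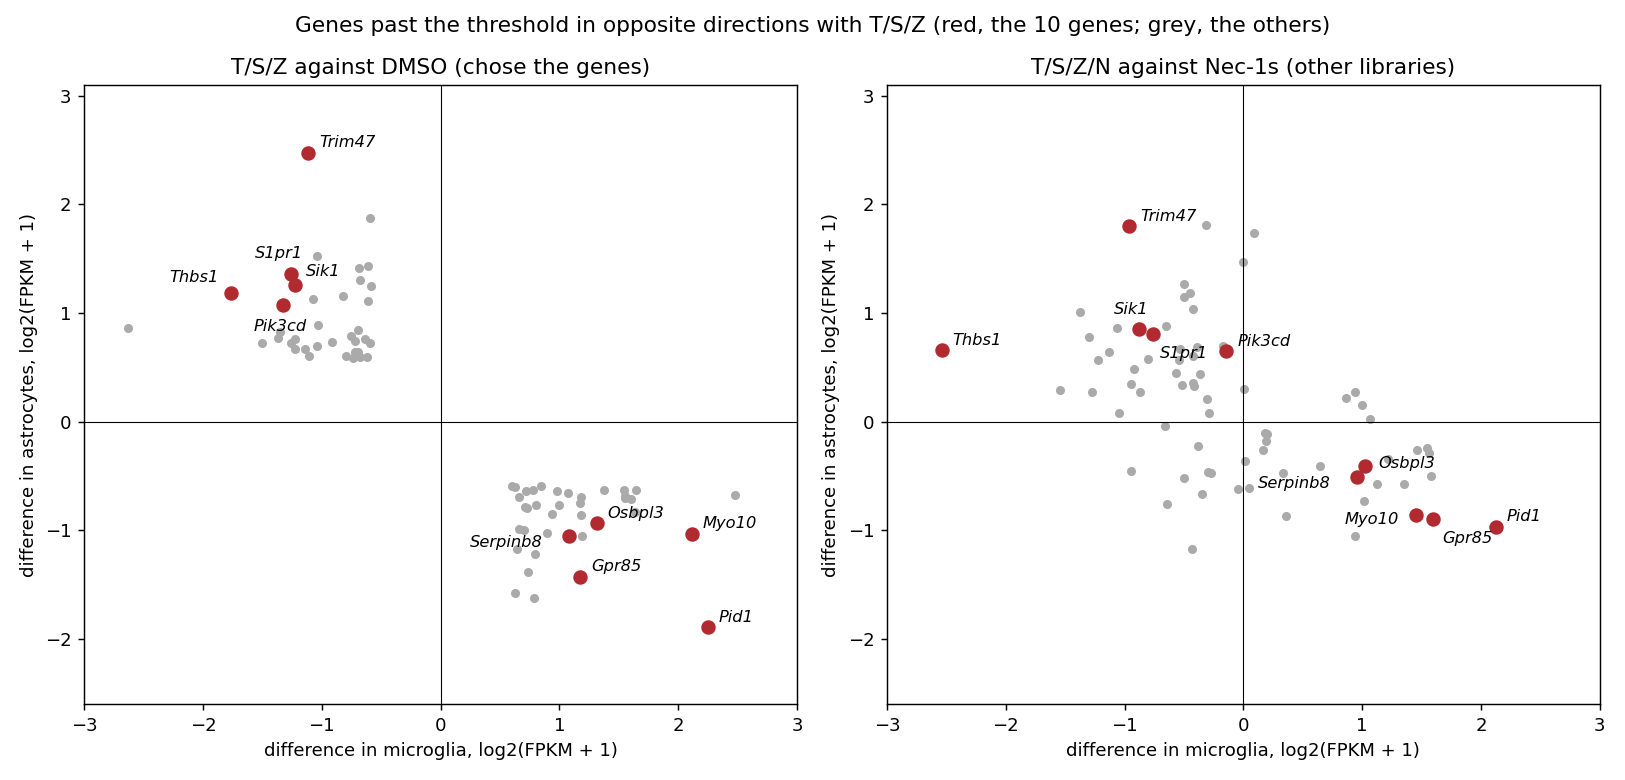
Each point is 1 of the 75 genes past the threshold in opposite directions in T/S/Z against DMSO, with the difference in microglia on the x axis and that in astrocytes on the y axis, both in log2(FPKM + 1). The left plot shows the contrast that chose the genes, so its empty quadrants follow from the choice. The right plot shows the same genes in T/S/Z/N against Nec-1s, where the 10 genes (red) stay in their quadrants, and 47 of the other 65 (grey) do so too.

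Pid1, an adaptor with a phosphotyrosine-interaction domain that restrains insulin signaling and binds LRP1, had the largest opposite difference of the 75 genes when each gene was ranked by the smaller of its absolute differences. It lies on the minus strand of chromosome 1 (GRCm38, chr1:84036296-84364180). In microglia the 4 Nec-1s libraries were at 5.66, 5.52, 6.18 and 5.82, and the 4 T/S/Z/N libraries at 8.00, 8.08, 7.70 and 7.89. The groups lay far apart, and Pid1 rose by 2.12 ± 0.149 (SE, n = 4, adjusted p = 2.54e-05). In astrocytes the Nec-1s libraries were at 5.11, 5.20 and 5.05 and the T/S/Z/N libraries at 4.13, 4.11 and 4.22. There Pid1 changed by -0.97 ± 0.0683 (n = 3, adjusted p = 0.00019), again without overlap. With T/S/Z alone the mean back-transformed level was 265 FPKM in microglia against 54.8 with DMSO, and 8.26 FPKM in astrocytes against 33.3. The tables were normalized separately, so levels set across them carry no test.

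The difference of T/S/Z/N from T/S/Z was -0.14 ± 0.046 in microglia (lower in 4 of 4 pairs) and 0.94 ± 0.0962 in astrocytes (higher in 3 of 3 pairs), which takes back 6.05% and 49.8% of the difference from DMSO. These values share the T/S/Z libraries with the contrast that chose the genes and are given without a test. With T/5z, whose 4 libraries were at 7.92, 7.91, 7.71 and 7.83, Pid1 was above Nec-1s by 2.05 ± 0.132 (adjusted p = 1.55e-05). Adding Nec-1s to T/5z gave -0.56 ± 0.0408 (adjusted p = 2.31e-05), lower in all 4 pairs and just under the fold minimum. In order of level, microglial Pid1 ran from Nec-1s and DMSO, which did not differ beyond their spread, through T/5z/N to T/5z, T/S/Z/N and T/S/Z, whose libraries overlapped.

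Myo10, an unconventional myosin that carries cargo to the tips of filopodia, lies on the plus strand of chromosome 15 (chr15:25622525-25813673). In microglia it was at 3.49, 3.25, 3.01 and 2.82 with Nec-1s and 4.21, 4.52, 4.80 and 4.86 with T/S/Z/N, and it rose by 1.46 ± 0.191 (n = 4, adjusted p = 0.000582). In astrocytes it was at 6.04, 5.80 and 6.00 with Nec-1s and 5.13, 5.13 and 5.01 with T/S/Z/N, and it changed by -0.86 ± 0.0747 (n = 3, adjusted p = 0.000454). No library of the treated group overlapped its control in either cell type. T/S/Z and T/5z gave nearly the same microglial level, 5.33 ± 0.133 and 5.36 ± 0.198 (mean ± SD), and Nec-1s left 4.60 ± 0.299 and 4.74 ± 0.164. The lowering by Nec-1s after T/5z passed the test at -0.62 ± 0.0659 (adjusted p = 0.000171), but without replicate 2 it was -0.57, under the fold minimum. In astrocytes the added Nec-1s made a difference of 0.16 ± 0.0933, 15.8% of the T/S/Z difference.

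Gpr85, an orphan receptor of the SREB family found mainly in brain, was the lowest of the 5 in resting microglia, at 1.88 FPKM with DMSO against 11.1 FPKM in astrocytes. It lies on the minus strand of chromosome 6 (chr6:13834458-13839942). The microglial libraries were at 1.57, 1.69, 1.51 and 1.19 with Nec-1s and 3.06, 2.89, 2.99 and 3.39 with T/S/Z/N, a rise of 1.59 ± 0.147 (n = 4, adjusted p = 9.61e-05). The astrocyte libraries were at 3.58, 3.63 and 3.66 with Nec-1s and 2.69, 2.72 and 2.77 with T/S/Z/N, a change of -0.90 ± 0.0668 (n = 3, adjusted p = 0.000235). With Nec-1s added, microglial Gpr85 was lower after T/5z and higher after T/S/Z. After T/5z, where the libraries were at 3.90, 3.83, 4.06 and 4.16, Nec-1s lowered Gpr85 to 3.01, 3.08, 2.89 and 3.22, a difference of -0.93 ± 0.0694 (adjusted p = 2.64e-05). After T/S/Z, where they were at 2.58, 2.72, 2.87 and 2.64, the difference was 0.38 ± 0.106 and higher in 4 of 4 pairs. T/S/Z/N and T/5z/N thus lay at 3.08 ± 0.217 and 3.05 ± 0.14, closer than the SDs, while T/S/Z and T/5z were at 2.70 ± 0.128 and 3.99 ± 0.148.

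Osbpl3, an oxysterol-binding protein-related protein that moves lipids at membrane contact sites, lies on the minus strand of chromosome 6 (chr6:50293330-50456170 in the microglial annotation). In microglia it was at 2.77, 2.68, 2.80 and 2.68 with Nec-1s and 3.59, 3.71, 3.78 and 3.95 with T/S/Z/N, and it rose by 1.03 ± 0.0807 (n = 4, adjusted p = 4.33e-05). In astrocytes the values were 5.71, 5.49 and 5.69 with Nec-1s and 5.26, 5.28 and 5.15 with T/S/Z/N. The groups did not overlap, and the difference of -0.40 ± 0.074 (n = 3) had an adjusted p of 0.00788 but stayed under the fold minimum. T/5z gave the highest microglial level of Osbpl3. Its libraries were at 5.14, 5.23, 5.10 and 5.30, above Nec-1s by 2.46 ± 0.0665 (adjusted p = 4.52e-07), and Nec-1s lowered it by a difference of -0.76 ± 0.0532 (adjusted p = 1.99e-05). The microglial order was Nec-1s and DMSO, then T/S/Z/N, T/S/Z, T/5z/N and T/5z, and only Nec-1s and DMSO overlapped.

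Serpinb8, a clade B serpin that inhibits furin-like proteases inside the cell, lies on the plus strand of chromosome 1 (chr1:107590006-107610484). In microglia it was at 2.92, 2.91, 3.15 and 3.09 with Nec-1s and 4.01, 4.03, 3.96 and 3.91 with T/S/Z/N, a rise of 0.96 ± 0.0754 (n = 4, adjusted p = 4.33e-05). In astrocytes it was at 3.51, 3.53 and 3.39 with Nec-1s and 3.13, 2.77 and 3.00 with T/S/Z/N, and the difference of -0.51 ± 0.0965 (n = 3, adjusted p = 0.00902) was under the fold minimum although no libraries overlapped. Serpinb8 was the one member of the higher set for which T/5z missed the threshold. T/5z libraries were at 3.46, 3.49, 3.35 and 3.50, above Nec-1s by 0.43 ± 0.0753, and T/5z/N libraries at 3.31, 3.14, 3.18 and 3.11, which overlapped Nec-1s with a difference of 0.17 ± 0.0767 (adjusted p = 0.118). In the astrocyte DMSO group, 1 library stood at 3.98 and the others at 3.43 and 3.53.

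Thbs1, thrombospondin 1, a secreted glycoprotein that activates latent TGF-beta and binds CD36 and CD47, went furthest down in microglia. It lies on the plus strand of chromosome 2 (chr2:118111876-118127133). In GENCODE M21 it shares 208 exonic bases with Gm29233, a lincRNA on the opposite strand, and reads there cannot be told apart where strand was not used in counting. The microglial libraries were at 5.59, 5.71, 5.36 and 6.27 with Nec-1s and 3.46, 3.46, 3.27 and 2.58 with T/S/Z/N, a change of -2.54 ± 0.247 (n = 4, adjusted p = 0.000124). The astrocyte libraries were at 6.43, 6.33 and 6.50 with Nec-1s and 7.02, 7.05 and 7.17 with T/S/Z/N, a rise of 0.66 ± 0.0532 (n = 3, adjusted p = 0.000337). In mean back-transformed level, Thbs1 stood at 8.14 FPKM in microglia and 134 FPKM in astrocytes with T/S/Z/N.

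With Nec-1s added, Thbs1 was lower in both cell types, and in microglia this was away from the DMSO level. After T/5z the microglial libraries went from 4.19, 4.45, 4.42 and 3.90 to 3.43, 3.39, 3.49 and 3.05, a difference of -0.90 ± 0.0573 (adjusted p = 1.2e-05). After T/S/Z the difference was -0.88 ± 0.228 in microglia and -0.57 ± 0.0874 in astrocytes, both without a test. Microglial Thbs1 thus ran from T/S/Z/N and T/5z/N, which overlapped, to T/S/Z and T/5z, which overlapped, and then to Nec-1s and DMSO.

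S1pr1, the receptor for sphingosine-1-phosphate that guides lymphocyte exit and endothelial barrier function and that is also expressed by astrocytes, lies on the minus strand of chromosome 3 (chr3:115710433-115715072). In microglia it was at 5.93, 6.06, 6.53 and 6.61 with Nec-1s and 5.65, 5.64, 5.47 and 5.34 with T/S/Z/N, and it changed by -0.76 ± 0.158 (n = 4, adjusted p = 0.00565). In astrocytes it was at 6.14, 6.28 and 6.09 with Nec-1s and 7.03, 6.97 and 6.93 with T/S/Z/N, a rise of 0.81 ± 0.0595 (n = 3, adjusted p = 0.000228). The microglial spread was wide, and with an ordinary per-gene variance the calls were lost in microglia (adjusted p = 0.106) and in astrocytes (adjusted p = 0.0743). Nec-1s alone was above DMSO in 3 of 3 astrocyte pairs, by 0.22 ± 0.0657. In microglia the added Nec-1s gave a difference of 0.46 ± 0.0401 after T/S/Z (higher in 4 of 4 pairs) and, after T/5z, of -0.25 ± 0.0605 (lower in 4 of 4 pairs, adjusted p = 0.0107), which is under the fold minimum. T/5z/N, at 4.99, 4.88, 4.70 and 4.78, had the lowest mean and was below Nec-1s by a difference of -1.45 ± 0.147 (adjusted p = 0.00014). The summed endothelial markers were also lower in T/S/Z/N and T/5z/N than in Nec-1s in microglia, and their part in the S1pr1 differences was not tested.

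Sik1, a salt-inducible kinase that holds the CRTC coactivators of CREB in the cytoplasm, lies on the minus strand of chromosome 17 (chr17:31844248-31855792 in the microglial annotation) and was the lowest of the lower set in microglia, at 6.36 FPKM with DMSO. The microglial libraries were at 3.06, 2.95, 2.70 and 2.59 with Nec-1s and 1.86, 1.94, 1.87 and 2.12 with T/S/Z/N, a change of -0.88 ± 0.116 (n = 4, adjusted p = 0.000611). The astrocyte libraries were at 1.37, 1.46 and 1.5 with Nec-1s and 2.33, 2.36 and 2.21 with T/S/Z/N, a rise of 0.86 ± 0.0878 (n = 3, adjusted p = 0.000888). These are low levels, and with 5 added before the log in place of 1 the differences were -0.50 and 0.41, under the fold minimum in both cell types. T/5z and T/5z/N were below Nec-1s by -1.09 ± 0.127 and -0.72 ± 0.0941 as signed differences (adjusted p = 0.000262 and 0.000534).

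Trim47, a RING-type ubiquitin ligase of the tripartite motif family, had the largest astrocyte rise of the 10. It lies on the minus strand of chromosome 11, at chr11:116105752-116110246 in the microglial annotation and chr11:116105752-116127210 in the astrocyte annotation. The astrocyte libraries were at 3.64, 3.36 and 3.77 with Nec-1s and 5.31, 5.40 and 5.47 with T/S/Z/N, a rise of 1.80 ± 0.0863 (n = 3, adjusted p = 3.48e-05). The microglial libraries were at 3.78, 4.07, 4.38 and 4.43 with Nec-1s and 3.15, 2.98, 3.43 and 3.26 with T/S/Z/N, a change of -0.96 ± 0.0901 (n = 4, adjusted p = 0.000103). All 4 stimulated microglial groups overlapped, with means from 7.24 FPKM (T/S/Z) to 8.52 FPKM (T/5z/N), and T/5z/N differed from T/5z by 0.08 ± 0.0685 (adjusted p = 0.376). In GENCODE M21, Trim47 shares 225 exonic bases on the same strand with Trim65, another RING ligase, so its reads are uncertain where the longer model was counted. Trim65 itself differed by -0.39 ± 0.0854 (adjusted p = 0.00698) in microglia and 0.12 ± 0.0907 (adjusted p = 0.32) in astrocytes in T/S/Z/N against Nec-1s, under the fold minimum in both. In T/S/Z against DMSO, given without a test, Trim65 differed by -1.72 ± 0.0666 in microglia and 0.34 ± 0.105 in astrocytes. Trim47 differed there by -1.12 ± 0.169 and 2.48 ± 0.0774.

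Pik3cd, the p110-delta catalytic subunit of class I PI3K of leukocytes, lies on the minus strand of chromosome 4 (chr4:149649168-149701590 in the microglial annotation). It had the largest share of the microglial T/S/Z difference taken back by Nec-1s. The 4 microglial libraries with T/S/Z were at 3.14, 3.35, 2.98 and 3.01, and those with T/S/Z/N at 4.14, 4.18, 4.33 and 4.29, next to 4.42, 4.31, 4.36 and 4.42 with Nec-1s and 4.48, 4.35, 4.43 and 4.53 with DMSO. T/S/Z stood apart from the other groups, and Nec-1s took back 83.9% of the T/S/Z difference, where the other 9 ranged from -49.6% (Thbs1) to 36.9% (S1pr1), a negative share being a move away from DMSO. T/S/Z/N against Nec-1s was -0.14 ± 0.0592 (n = 4, adjusted p = 0.0801), lower in 4 of 4 pairs with overlapping groups. T/5z, at 3.99, 3.98, 3.95 and 3.96, differed from Nec-1s by -0.41 ± 0.0465 (adjusted p = 0.000244), under the fold minimum. In astrocytes Pik3cd rose from 1.24, 1.21 and 1.25 with Nec-1s to 1.90, 1.75 and 2.00 with T/S/Z/N, by 0.65 ± 0.0864 (n = 3, adjusted p = 0.00238), a low level of 2.69 FPKM. With 5 added before the log the astrocyte difference was 0.28, under the fold minimum. The mean level of Pik3cd in astrocytes was 7.80% of that in microglia with DMSO and 58.8% with T/S/Z, levels set across tables that were normalized separately.

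**Figure D3:**
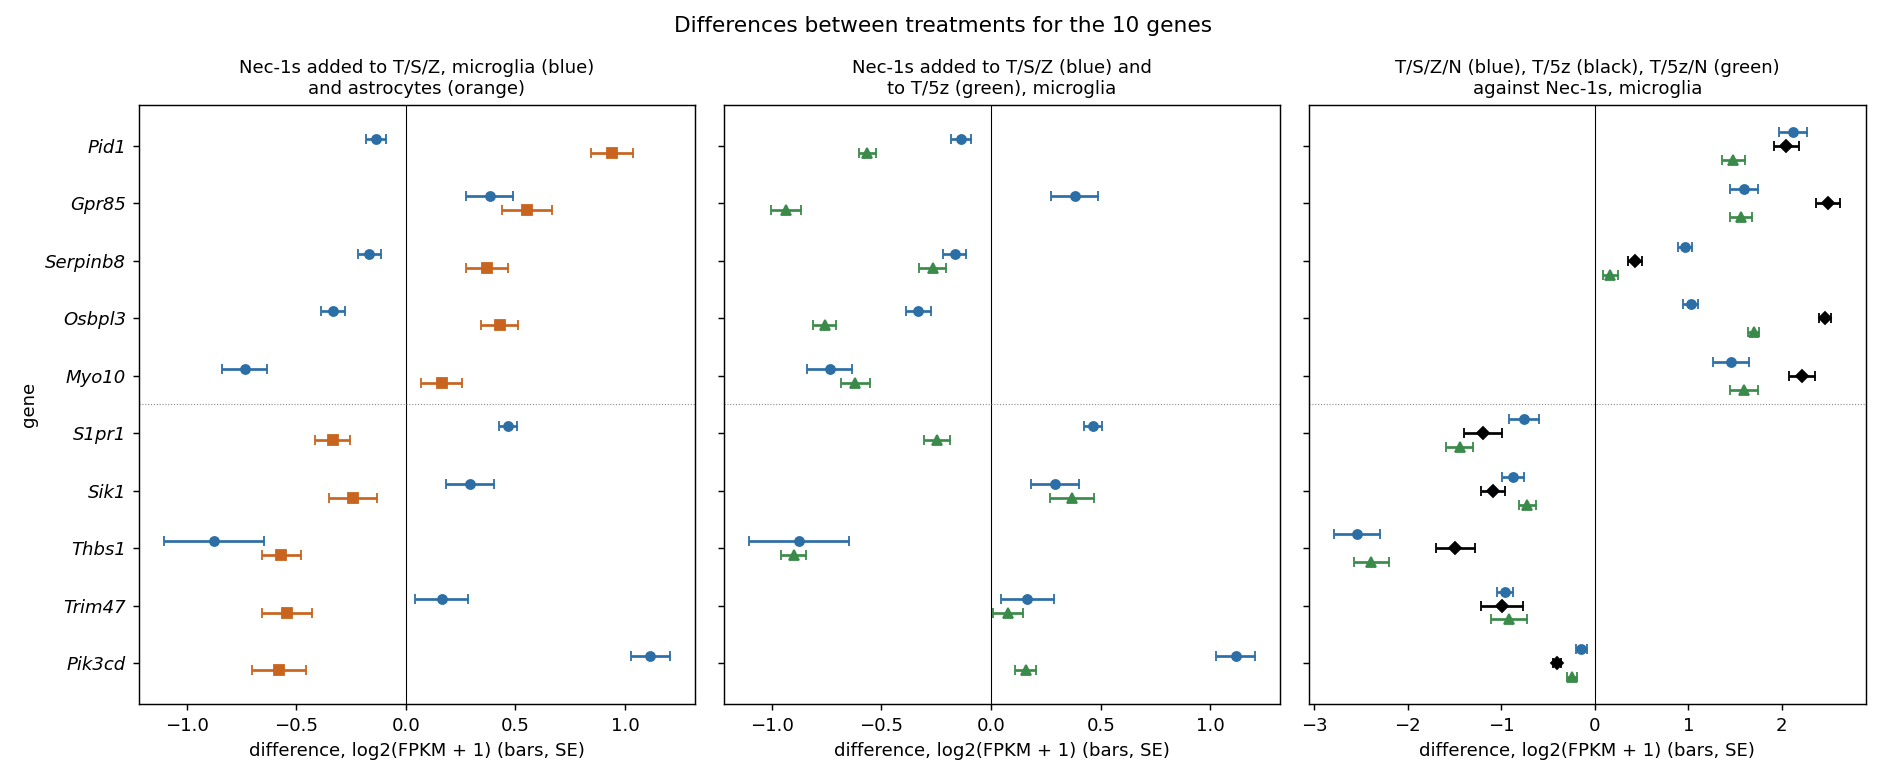
Differences in log2(FPKM + 1) on the x axis for the 10 genes, with SE bars from the limma fit (4 microglial and 3 astrocyte pairs). The left plot sets Nec-1s added to T/S/Z in microglia (blue) beside astrocytes (orange), and the middle plot sets it in microglia after T/S/Z (blue) beside after T/5z (green). The right plot gives T/S/Z/N, T/5z and T/5z/N against Nec-1s in microglia. Pik3cd stands apart in the left plot at 1.12 ± 0.0886, and Gpr85 and S1pr1 change sign between the stimuli in the middle plot.

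T/5z, which uses TAK1 inhibition in place of Smac and zVAD, is a second stimulus in microglia whose libraries did not choose the genes. Against Nec-1s, 8 of the 10 genes passed with T/5z, 4 higher and 4 lower, where 24.6% of genes passed, and 8 passed with T/5z/N, again 4 higher and 4 lower, where 12.4% passed. Pik3cd and Serpinb8 were the exceptions both times. With an ordinary per-gene variance the calls of S1pr1 (adjusted p = 0.0502) and Trim47 (adjusted p = 0.0931) with T/5z and of Trim47 (adjusted p = 0.117) with T/5z/N were lost. All 10 had the sign of T/S/Z against DMSO in 4 of 4 pairs in both comparisons, where 73.6% (T/5z) and 57.5% (T/5z/N) of all genes had 4 pairs of one sign. These comparisons and T/S/Z/N against Nec-1s share the Nec-1s libraries. The comparison of T/5z/N with T/5z, which isolates the inhibitor, called 4 of the 10, all lower (Thbs1, Gpr85, Osbpl3 and Myo10), where 7.16% of genes passed and the median over all genes was 0.04. Nec-1s alone moved the 10 genes by -0.10 to 0.01 in microglia and -0.17 to 0.22 in astrocytes against DMSO, without a test.

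In astrocytes the inhibitor shifted all 10 genes toward DMSO after T/S/Z, in 3 of 3 pairs each, with the share taken back between 15.8% (Myo10) and 54.0% (Pik3cd). In microglia this held in 4 of 4 pairs for 6 of the 10 (Pid1, Serpinb8, Osbpl3, Myo10, S1pr1 and Pik3cd), and Thbs1 and Gpr85 moved away from DMSO in 4 of 4 pairs. Sik1 and Trim47 moved toward DMSO in 3 and 2 of 4 pairs. These shares and counts use the T/S/Z and DMSO libraries that chose the genes, and are a description. The choice favours a move back toward DMSO, and how many of all genes made such a move was not counted. The counts are therefore no comparison of the cell types.

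A list of 64 relatives of the 10 genes (selected members of their families and close partners, not whole families) was examined in the same fits. In T/S/Z/N against Nec-1s, 43 were tested in microglia, of which 6 were higher and 4 lower, with a median difference of -0.12, beside the 13.9% called over all genes. In astrocytes 51 were tested, of which 8 were higher and 2 lower, with a median of -0.02, beside 8.54%. In T/5z against Nec-1s 7 were higher and 11 lower of 43, beside 24.6% called over all genes, and in T/5z/N against Nec-1s 2 were higher and 4 lower, beside 12.4%. In T/5z/N against T/5z 3 were higher and 4 lower of 43, beside 7.16%.

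Among the sphingosine-1-phosphate genes, the receptors S1pr2 and S1pr3 rose beside S1pr1 in astrocytes, by 0.83 ± 0.0664 and 0.80 ± 0.0798 (adjusted p = 0.000319 and 0.000813), 2 of 6 tested. In microglia 1 of 5 tested passed, the S1P phosphatase Sgpp1 at -0.77 ± 0.0635 (adjusted p = 5.59e-05), while S1pr2 differed by 0.13 ± 0.0571 (adjusted p = 0.102). Among the thrombospondin genes, the Thbs1 receptor Cd47 rose by 1.12 ± 0.0598 in astrocytes (adjusted p = 5.95e-05), and 0 of 3 tested passed in microglia.

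Among the class I PI3K genes, 3 of 9 tested rose in microglia in T/S/Z/N against Nec-1s: the gamma catalytic subunit Pik3cg (1.04 ± 0.0688, adjusted p = 1.82e-05) and its regulatory subunits Pik3r5 (1.67 ± 0.0617, adjusted p = 1.62e-06) and Pik3r6 (1.24 ± 0.0927, adjusted p = 3.49e-05). The regulatory subunit Pik3r2 was lower by a difference of -0.75 ± 0.0521 (adjusted p = 2.49e-05). In astrocytes Pik3r5 rose by 2.45 ± 0.0877 (adjusted p = 1.07e-05) and Pik3r1 by 0.90 ± 0.0665 (adjusted p = 0.000224), with Pik3r2 at -0.66 ± 0.067 (adjusted p = 0.000838), so Pik3r5 and Pik3r2 moved the same way in both cell types. Pik3cg and Pik3r6 were not analysed in astrocytes.

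Of the clade B serpins, Serpinb9, an inhibitor of granzyme B, rose in both cell types, by 0.71 ± 0.116 (adjusted p = 0.00172) in microglia and 1.04 ± 0.065 (adjusted p = 0.00011) in astrocytes. Serpinb2 rose by 2.33 ± 0.0534 (adjusted p = 1.66e-06) and Serpinb6b by 0.73 ± 0.0831 (adjusted p = 0.0013) in astrocytes. Of the remaining lists, Crtc2, a CRTC substrate of the salt-inducible kinases (0.63 ± 0.0588, adjusted p = 9.8e-05), and Osbp2 (0.76 ± 0.0783, adjusted p = 0.000166) rose in microglia. Myo7a, a myosin with some of the tail domains of Myo10 (-0.59 ± 0.0796, adjusted p = 0.000661), and the ligase Trim25 (-1.26 ± 0.132, adjusted p = 0.000185) were lower there. In astrocytes Lrp1, the receptor bound by Pid1, was lower (-0.64 ± 0.185, adjusted p = 0.0371).

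The genes whose levels ran most like each of the 10 were found by Pearson correlation over the 10 group means, 6 microglial and 4 astrocyte, each centred on the mean of its own table. These r values are high for every gene because the best of many genes is taken over 10 points that share libraries, and they are a description. Cmklr1, a chemoattractant receptor, was nearest to Pid1 (r = 0.985) and is itself among the 75 genes, at 1.18 in microglia and -0.86 in astrocytes in T/S/Z against DMSO. Adam19 was nearest to Osbpl3 (r = 0.976), Kif3c to Gpr85 (r = 0.976) and Dynll1 to Serpinb8 (r = 0.973). Gtpbp3 was nearest to Pik3cd (r = 0.982), Cmtm4 to Sik1 (r = 0.977), Rnf122 to Trim47 (r = 0.976), Heatr1 to S1pr1 (r = 0.963) and Cpeb1 to Thbs1 (r = 0.961). Gtpbp3 and Heatr1 are also among the 75 genes.

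The 10 genes took ranks 1 to 6, 8, 9, 12 and 13 of the 75 by the smaller absolute difference in T/S/Z against DMSO, the lowest being Osbpl3 at 0.93. Trim34a (1.08), Fabp4 (1.05) and Slc43a2 (1.04) lay between them and were not listed. Just below lay mt-Co2 (0.90), Tmem51 (0.89) and Tmem140 (0.86), and of these 6 genes Tmem140 alone passed in opposite directions with T/S/Z/N against Nec-1s.

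Promoter windows of 250 bases before to 50 after the start, from RefSeq (GRCm38.p6), were matched for 7 of the 10 genes. They were searched on both strands for kB (GGNNNTTCC), CRE (TGACGTCA), AP-1 (TGANTCA) and the CArG box, as letters only. Each match before a start site is shown with its surroundings, the match in capitals, 5′ to 3′ on the strand of the gene.
Serpinb8, AP-1, chr1:107589963-107590005: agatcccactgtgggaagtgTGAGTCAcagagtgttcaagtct
Pik3cd, alternative start, kB, chr4:149676240-149676288: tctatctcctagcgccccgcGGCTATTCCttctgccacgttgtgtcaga
Among all 32851 promoter windows, 7.81% held AP-1 and 18.5% held kB, so a match in 1 of 7 genes is a description of these letters and no evidence of binding. Serpinb8 had a further AP-1 match past its start, and no window of the 7 genes held CRE (1.79% of all) or the CArG box (1.63%).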

How the data were processed

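The authors deposited gene-level log2 FPKM values, made with Array Studio, with gene annotations on GRCm38; the aligner is not given in the sources used here. From the values, 1 was added before the log and the upper quartile of a library is 4.11 to 4.16 in microglia and 4.73 to 4.74 in astrocytes. Per the labels, Genewiz made the microglial libraries and BGI the astrocyte libraries with a strand-specific kit, whereas the study's methods name BGI for both cell types. Whether strand was used in counting is not given in the sources used here. The deposited annotation marks Pid1, Thbs1, Pik3cd and Myo10 in both tables, and Trim47 in astrocytes, as confounded, a mark that is not explained. The tables were normalized separately, so nothing was tested across them. In the deposited microglial log2 table the replicate means agree to within 6.67e-05 per gene, which leaves up to 1438 negative values in a library, while in astrocytes they differ by up to 5.16. Read depth is not given in the sources used here. The smallest steps at low values put 1 read of a 1 kb gene at 0.0446 to 0.047 FPKM in astrocytes and at 0.0394 to 0.0547 FPKM in the 6 microglial libraries of replicate 4, which hold no negative value, but whole reads were not recovered, so no counting interval is given.

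Genes with a log2 value of at least 1 in at least 4 microglial or 3 astrocyte libraries were tested (10524 of 15385 and 13842 of 14551), and all 10 genes passed in both tables. Each comparison used limma 3.58.1 (R 4.3.3; lmFit and eBayes with a trend) on the libraries of its groups, 2-sided, and a block for the replicate number, after the paired test of the study. Deviations from group means correlated between same-numbered libraries at -0.458 to 0.257 in microglia and -0.144 to 0.411 in astrocytes. The equal replicate means in the microglial table force such correlations down, so the check says nothing there, and in astrocytes not every pair correlated. The fits were tested on simulated data. A fold change on this scale understates the change of low genes.

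The 10 genes, the lists of relatives and markers and the motifs were chosen with earlier results of these data known. All 10 genes are described in every group, relatives where they pass the threshold, the nearest genes by correlation, and the pool genes just below the 10; Trim65, S1pr2 in microglia and the unlisted pool genes above rank 13 were named after their values were seen. Alternatives were the block, the variance, the filter, the value added before the log, centring, quantile normalization, the groups in the fit, the fold minimum and leaving out each replicate. The result for 1 of the nearest genes is not reported here.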

Additional observations from a re-analysis of the deposited data

Results flagged for a closer look

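In T/S/Z/N against Nec-1s, all 4 microglial pairs of each of the 10 genes moved one way and all 3 astrocyte pairs the other. The difference between the cell types was not tested, since the tables were normalized separately. The microglial minus the astrocyte difference was 3.09 for Pid1, 2.49 for Gpr85, 2.31 for Myo10, 1.47 for Serpinb8 and 1.43 for Osbpl3. It was -3.20 for Thbs1, -2.76 for Trim47, -1.73 for Sik1, -1.57 for S1pr1 and -0.80 for Pik3cd. The genes were chosen for opposite directions in T/S/Z against DMSO, which uses other libraries.

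For 6 genes, Nec-1s added to T/S/Z moved every microglial pair one way and every astrocyte pair the other, and this difference was not tested either. How many of all genes did so was not counted. The T/S/Z libraries also chose the genes, which favours opposite moves back. The microglial minus the astrocyte value was 1.70 for Pik3cd and 0.80 for S1pr1, and -1.08 for Pid1, -0.90 for Myo10, -0.76 for Osbpl3 and -0.54 for Serpinb8. In microglia, Nec-1s moved Gpr85 and S1pr1 down in all 4 pairs after T/5z and up in all 4 pairs after T/S/Z. The T/5z value minus the T/S/Z value was -1.32 for Gpr85 and -0.71 for S1pr1, also not tested because the T/S/Z libraries chose the genes.

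No library of the 60 microglial groups examined (10 genes in 6 treatments) lay apart from the other 3 by Dixon's 95% limit for 4 samples, where chance flags about 1 in 20. These levels are those of the deposited table, in which replicates share a mean per gene, so a replicate that departed in all treatments could not be seen. Astrocyte groups of 3 were not examined.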

How the results depend on the processing

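Under 9 alternatives and with each replicate left out, none of the differences of the 10 genes in the 5 tested comparisons changed sign: of 630 values, 593 kept their side of the threshold, 35 fell below it and 2 rose above it. With a fold minimum of 2 in place of 1.5, the genes called fell from 9 to 5 for T/S/Z/N against Nec-1s in microglia, from 8 to 1 (Trim47) in astrocytes, and from 4 to 0 for T/5z/N against T/5z. With an ordinary per-gene variance, which leaves 2 residual degrees of freedom in astrocytes, the astrocyte count fell from 8 to 1 (Gpr85), with 181 in place of 1182 genes called in all. Over all genes, in the order T/S/Z/N in microglia, T/S/Z/N in astrocytes, T/5z and T/5z/N against Nec-1s, and T/5z/N against T/5z, the genes called went from 1460, 1182, 2586, 1310 and 754 to 833, 541, 1461, 782 and 314 with 5 added before the log, to 897, 620, 1468, 819 and 385 with a mean log2 filter of at least 3, and to 590, 367, 1089, 559 and 182 with the fold minimum of 2. Leaving out a replicate gave 9 to 9 (T/S/Z/N in microglia), 8 to 8 (T/S/Z/N in astrocytes, T/5z and T/5z/N against Nec-1s) and 3 to 5 for T/5z/N against T/5z, where Myo10 was lost without replicate 2 and Pid1 gained without replicate 4. Without the replicate block the counts were 9, 8, 8, 8 and 4, as with it, and the block changed no call of the 10 genes, which in microglia says little because replicates there already share a mean per gene. A mean log2 filter of at least 3 left 8 of the 10 genes to test. Low genes such as Sik1, and Pik3cd in astrocytes, rest on the value added before the log.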
